A study of Drosophila melanogaster with 24 samples.

Results

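Whole-body transcript abundance was compared between males of the lines selected for low aggression (L1 and L2) and males of the unselected control lines (C1 and C2). The comparison took every male array whose title names the Low or the Control Group, which gave 8 of the 24 arrays of the series, 4 per group and 2 per line. The other arrays hold the females of these lines and both sexes of the lines selected for high aggression. Each sample held 12 whole virgin flies of 1 line, aged 3 to 7 days and kept without food for 90 min, and was hybridized to 1 whole-genome array of oligonucleotide probe sets.

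The L and C lines shared a base population made from 60 isofemale lines. In each generation 50 males of an L line were scored for aggression, and the 20 least aggressive became parents. The C lines were not selected, were scored in alternate generations, and took the first 20 males regardless of score. The article places the arrays at generation 25, and the labels place them at generation 28. Both samples of a line and sex were separate pools of flies, and no source says whether the pools grew in separate cultures. P-values over arrays measure the spread between such pools, not between lines. Selection and chance differences among lines can be separated only over 2 lines per group.

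Male flies fight over food, territory and mates, and the behavior depends on the nervous system, with octopamine, serotonin and dopamine among the transmitters known to modulate it. RNA of a whole male body comes mostly from larger tissues: flight muscle, the fat body (the insect counterpart of liver and adipose tissue), the midgut with its secreted proteases and its chitin-lined barrier, the epidermis that lays down cuticle, and the testis and accessory glands. In such samples, fewer cells of a type and less RNA per cell cannot be told apart.

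The values are Signals, linear brightness estimates of a probe set scaled by the authors to a common target on every array. The median Signal was 129.1 to 143.4 on the L arrays and 128.3 to 141.5 on the C arrays, and arrays of the same line correlated at 0.982 to 0.990 across probe sets. The arrays matched their sex label. Of 8 ovary markers, 1 (bcd) was called and 4 were under a Signal of 50 on all 8 arrays and the 8 together summed to 199 to 334, whereas 6 accessory gland markers summed to 61500 to 72200. A probe set was tested when its Signal reached 50 on at least 12 of the 24 arrays, and 9913 genes were tested, each through its probe set with the highest mean. Of these genes 276, among them 9 of the 240 called, did not reach 50 on 4 of the 8 male arrays of L and C and passed through other arrays. Differences are given as L minus C of log2(Signal + 16), which understates the change of dim transcripts. Precision is limited by the small number of arrays.

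Of the 9913 genes, 240 (2.42%) were called different between L and C males, 85 (0.857%) higher and 155 (1.56%) lower in L. The balance of directions depended on the scale, since an ordinary model on the Signal itself, the scale of the study's own analysis, called 795 genes, 528 higher and 267 lower, and a common median of the arrays gave 47 higher and 61 lower. A call required an adjusted p under 0.05 and line means of L1 and L2 that both lay on the same side of those of C1 and C2. The second condition left out 90 of the 330 genes past the p threshold, and 34.4% of all genes tested met it. Most called differences were small, with a median size of 0.56 on the log2 scale or 1.47-fold, and 38 exceeded 2-fold (17 higher, 21 lower). In 163 of the 240 genes the 4 L arrays and the 4 C arrays did not overlap, 67.9% against 7.96% of all genes tested. The genes were called on these same arrays, so this share is only a description. The study's rule of 2 steps first keeps probe sets whose term for line, or whose interaction of line and sex, has an adjusted p below 0.001. It then takes those whose male contrast has an unadjusted p below 0.05. Applied with limma to log2(Signal + 16), where the study used the Signal, this rule took 450 of 11928 probe sets (3.77%), 196 higher and 254 lower, and on the Signal it took 493. When the line was the replicate, 0 of 9913 genes (0%) passed an adjusted p of 0.05 in limma, the lowest adjusted p was 0.666, and 518 genes (5.23%) had an unadjusted p under 0.05. The genes called over arrays are therefore differences between these 4 lines, with a spread measured within lines. The count fell to between 108 and 182 when any 1 of the 8 arrays was left out, and of 65 called genes followed through every alternative 33 were still called without each array in turn.

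The L lines did not move alike. Among the 17 genes more than 2-fold higher, L1 and L2 lay further apart than L from C in 13, and L1 was above L2 in 15, by more than 1 on the log2 scale in 12. Among the 21 genes more than 2-fold lower, L1 and L2 lay further apart than L from C in 3. Over all genes tested, the median difference from C was -0.01 in L1 and -0.01 in L2. A value more than 1 above C was found in 1.02% of genes in L1 and 0.222% in L2.

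**Figure D1:**
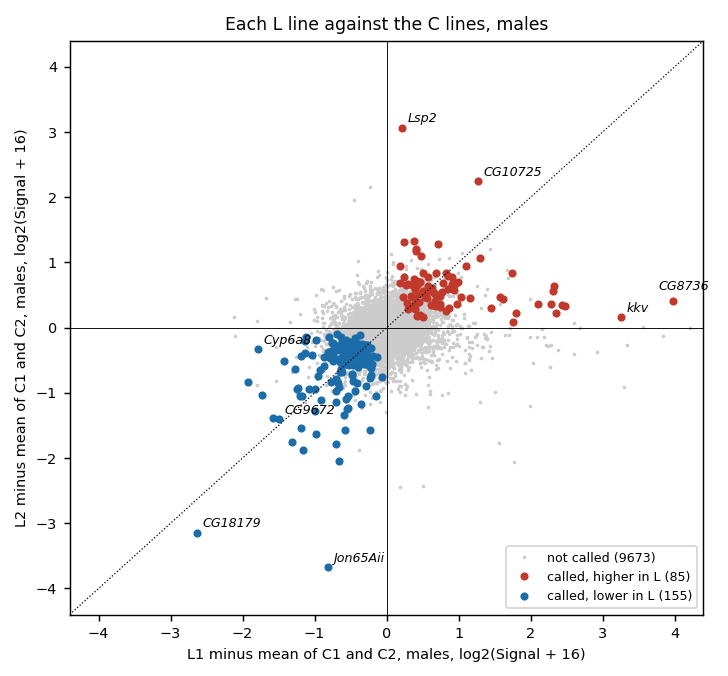
Each point is 1 of 9913 genes in males, placed by the difference of line L1 (horizontal axis) and of line L2 (vertical axis) from the mean of C1 and C2, both in log2(Signal + 16). The dotted line marks equal change. L1 and L2 are further apart than L from C in 22 of the 85 genes called higher (red) and 20 of the 155 called lower (blue), and CG8736 lies at 3.98 in L1 and 0.41 in L2.

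In the lists of digestion, 6 of 47 genes were called, all lower, against 1.56% of all genes called lower. The share called in this and every later list stands against 2.42% of all genes, 0.857% higher and 1.56% lower. The list of digestive serine proteases holds mainly the Jonah and trypsin families, secreted by the midgut to digest dietary protein. It also holds Send1, at 1.85 to 12.1 as line means in males and 332 to 883 in females, which passed the filter through females. Of the 27 tested members of the list, 4 fell (14.8%) and none of the others were called. Over the list the median was -0.095 on the log2 scale against -0.015 for all genes. The list median was -0.268 in L1 and 0.017 in L2. The 4 midgut markers measured, 3 of them members of this list, summed to 53800 to 61700 in L and 52400 to 61400 in C, and 0 of the 4 were called. The decrease was largest for Jon65Aii (CG6580, arm 3L), a Jonah protease. Its Signals were 2189 and 3206 in C1, 2535 and 2108 in C2, 1712 and 1150 in L1, and 214 and 150 in L2. The groups did not overlap, and L2 was far below L1. The difference was -2.24 (SE 0.195, adjusted p = 2.12e-05), made up of -0.81 in L1 and -3.67 in L2, and the call was lost without line L2. Jon99Fi, another Jonah gene, had Signals of 11326 and 10929 in C1, 10745 and 10151 in C2, 7576 and 7055 in L1, and 5429 and 4691 in L2. It fell without overlap, by 0.83 on the log2 scale (SE 0.136, adjusted p = 0.00389), and was not called without line L2. Jon44E fell by 0.79 (SE 0.142, adjusted p = 0.00702), with Signals of 1211 to 1913 in L and 2195 to 3516 in C, a call lost without line C1. The call of thetaTry, a trypsin, at -0.58 (SE 0.114, adjusted p = 0.011) was lost without the second array of C1, the first of L1 or the second of L2. Ser6 passed the p threshold with a higher mean in L (0.51) but was not called, because its Signals in C1 (1453 and 1712) lay above those of every L array.

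Peritrophins bind the chitin of the peritrophic matrix, the sheath that separates food from the midgut wall. Peritrophin-15a and Peritrophin-15b, neighbors on arm 2L, fell together. Signals of Peritrophin-15b were 580 and 678 in C1, 390 and 346 in C2, 229 and 364 in L1, and 162 and 100.1 in L2. One L1 array lay above the lowest C2 array, and the L2 arrays were lowest. The difference was -1.25 (SE 0.163, adjusted p = 0.000571), and that of Peritrophin-15a was -0.67 (SE 0.115, adjusted p = 0.00517) with no overlap (2824 to 3714 in L, 4700 to 5365 in C), lost without line C2. PGRP-SC2 encodes a secreted enzyme that degrades bacterial peptidoglycan. Its Signals were 3585 and 4010 in C1, 5349 and 5374 in C2, 1602 and 2384 in L1, and 2178 and 2169 in L2. All 4 L arrays lay below all 4 C arrays and both L lines were at a similar level, with a difference of -1.12 (SE 0.15, adjusted p = 0.000633). The list of 20 carbohydrate-digesting and other digestive enzymes also holds the sterol-binding protein gene Npc2a. In this list 2 genes fell (10%, list median -0.147 in L1 and -0.02 in L2), the mannosidase LManI (-0.59, SE 0.125) and the maltase Mal-A4 (-0.42, SE 0.0992). Each of these calls, at adjusted p = 0.018 and 0.0339 with all arrays, was lost without any 1 of 5 arrays. LManIII passed the p threshold (-1.34, adjusted p = 0.0136) but was not called, since L2 lay between the C lines. Peritrophin-15a, Alp9 and Alp10 belong to no list and were chosen after their values were seen. Alp9 and Alp10, adjacent alkaline phosphatase genes on 3L, were lower by 0.76 (SE 0.188) and 0.55 (SE 0.132). The calls, at adjusted p = 0.0398 and 0.0345, were lost without any 1 of 6 arrays for Alp9 and any 1 of 7 for Alp10.

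**Figure D2:**
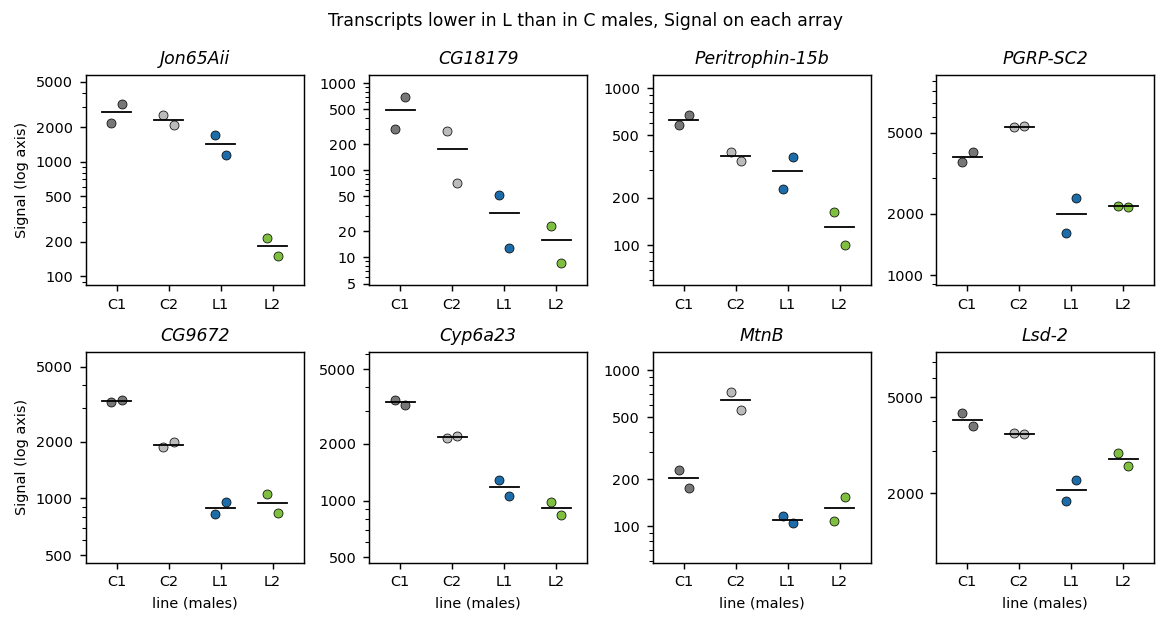
Signal on each male array (dots, log axis) by line, with the mean of both arrays of a line as a bar, for 8 transcripts lower in L. In Jon65Aii the L2 arrays (214 and 150) lie far below those of L1, in PGRP-SC2 and CG9672 both L lines are alike, and in MtnB line C2 stands above C1.

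Enzymes of detoxification moved in both directions, more of them down, as did all called genes (85 higher and 155 lower). Cytochrome P450 genes encode monooxygenases that oxidize xenobiotics, hormones and lipids. Of 75 genes tested in the list, 2 rose and 7 fell (12% called against 2.42% of all genes, list median -0.11). The list was matched by symbol and also holds Cyp1 and Cyp40, which encode cyclophilins and not P450 enzymes. Neither was called (0.06 and 0.05). Cyp6a23 (CG10242, arm 2R) was the most reduced, with Signals of 3441 and 3232 in C1, 2140 and 2200 in C2, 1285 and 1062 in L1, and 987 and 842 in L2. No L array reached the lowest C array, and the difference was -1.37 (SE 0.132, adjusted p = 4.28e-05). Its relative Cyp6a17 (CG10241), a member of the same gene cluster on 2R, moved the other way. Signals of Cyp6a17 were 775 and 485 in C1, 1431 and 1260 in C2, 1479 and 1529 in L1, and 2086 and 2367 in L2. The groups did not overlap, although C2 came close to L1, and the difference was 1.00 (SE 0.138, adjusted p = 0.000882), no longer called without line C1. How far related P450 transcripts share the probes of these probe sets was not tested.

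Cyp6a8 fell by 1.06 (SE 0.171, adjusted p = 0.00317), with most of the change in L1: Signals were 378 and 506 in L1, 1416 and 1051 in L2 and 1296 to 1773 in C. The groups overlapped, and the call was lost without line L1. Cyp4d1 rose in both lines, to 530 and 564 in L1 and 967 and 743 in L2 against 343 to 432 in C (0.79, SE 0.13, adjusted p = 0.00386), and was not called without line L2. Its relatives Cyp4d2 and Cyp4d14, also on the X, were lower by 0.53 (SE 0.122) and 0.88 (SE 0.186), at adjusted p = 0.0293 and 0.0174. Cyp6a20, a gene linked to aggression in other work on flies, was not called (-0.19, with -0.29 in L1 and -0.08 in L2).

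Glutathione S-transferases attach glutathione to reactive compounds. Of 32 tested, 1 rose and 2 fell (9.38%; list median -0.04). GstD9 (CG10091, arm 3R) gave one of the most even differences of the comparison. Its Signals were 1187 and 1055 in C1, 1220 and 1128 in C2, 1944 and 2222 in L1, and 2023 and 1946 in L2. The lowest L array lay well above the highest C array, L1 and L2 were alike, and the difference was 0.82 (SE 0.0814, adjusted p = 5.12e-05). GstE5 fell to 810 and 908 in L1 and 588 and 663 in L2, from 1147 and 1221 in C1 and 1762 and 1556 in C2 (-0.92, SE 0.104, adjusted p = 0.000164). The adjacent GstE6 fell by 0.56 (SE 0.101, adjusted p = 0.0073), a call lost without line C2.

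UDP-glycosyltransferases add sugars to small lipophilic molecules. Of 26 tested, 1 rose and 3 fell (15.4%; list median -0.11). Ugt35C1 fell to 1229 and 1074 in L1 and 2432 and 1933 in L2, against 2659 to 3364 in C, without overlap (-0.97, SE 0.133, adjusted p = 0.00082). Without line L1 it was not called. The other calls were small: Ugt35B1 at -0.37 (SE 0.0877, adjusted p = 0.0327) and Ugt302E1 at -0.60 (SE 0.148, adjusted p = 0.0395) below C, and Ugt37A2 at 0.67 (SE 0.156, adjusted p = 0.03) above it. Ugt35B1 lost its call without any 1 of the 8 arrays, Ugt302E1 without any 1 of 7 and Ugt37A2 without any 1 of 6.

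Metallothioneins bind copper and zinc and are induced by metals. In the list of 14 metallothionein and antioxidant genes, 2 were called lower and 0 higher (14.3%; median -0.10). By adjusted p alone 1 further member was higher, but it failed the condition on the line means. MtnB had Signals of 230 and 176 in C1, 731 and 560 in C2, 115 and 105 in L1, and 108 and 154 in L2. The L lines were alike and below C1, while C2 stood above C1, and the difference was -1.48 (SE 0.138, adjusted p = 3.75e-05). Without line C2 the call was lost. MtnC, with Signals of 2074 to 3164 in L and 3567 to 5174 in C, fell by 0.71 (SE 0.142, adjusted p = 0.0129), a call lost without line L2, line C1, the second array of C2 or the first of L2.

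Transcripts of cuticle and chitin were high in line L1. Cuticle proteins of the Cpr and Tweedle families bind chitin or pack between its fibres in the insect exoskeleton. Of 103 such genes on the array 38 passed the filter on low values, and 31 of these 38 had a positive difference, with a median of 0.45. The rise was in L1, where the median over the list was 0.79 and 15 members lay more than 1 above C. In L2 the median was 0.00 and 0 members did. By adjusted p alone 10 genes were higher and 1 lower, and with the condition on the line means 3 were called higher and 1 lower (10.5%). In females of the same lines, on other arrays, the list showed a similar split, with 14 members more than 1 above C in L1, 0 in L2, and medians of 0.68 and -0.001.

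The chitin synthase gene kkv (krotzkopf verkehrt, CG2666, arm 3R) makes the polymer to which these proteins bind. Its Signals were 58 and 91 in C1, 79 and 79 in C2, 808 and 923 in L1, and 75 and 99 in L2. Both L1 arrays stood about an order of magnitude above the rest, and the L2 arrays overlapped with C. The difference of 1.71 (SE 0.146, adjusted p = 2.12e-05) was thus 3.26 in L1 and 0.16 in L2. The call was lost without the first array of C1, the second of L2 or line L1. Cpr67Fa1 had Signals of 49 and 83 in C1, 32 and 68 in C2, 370 and 311 in L1, and 90 and 88 in L2. The L2 arrays lay only just above C, and the difference was 1.44 (SE 0.253, adjusted p = 0.00609), lost without line L1.

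The cuticle genes furthest from C were not called at all, since their L2 mean fell among the C lines. Cpr72Eb was at 730 and 917 in L1, 60 and 51 in L2 and 43 to 73 in C (1.79, SE 0.236, adjusted p = 0.000624). Cpr30F was at 574 and 601 in L1, 29 and 40 in L2 and 19 to 70 in C. In both genes L1 alone stood apart. Cpr62Bb, by contrast, was higher in both lines, with Signals of 860 to 1055 in L and 499 to 701 in C and no overlap (0.74, SE 0.151, adjusted p = 0.016). Cpr100A was also higher in both (0.53, SE 0.128, adjusted p = 0.0384). Cpr67B was lower in both, at 767 to 1365 in L and 1572 to 2272 in C (-0.80, SE 0.182, adjusted p = 0.0273). The call was lost without any 1 of 5 arrays for Cpr62Bb, 7 for Cpr100A and 6 for Cpr67B.

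**Figure D3:**
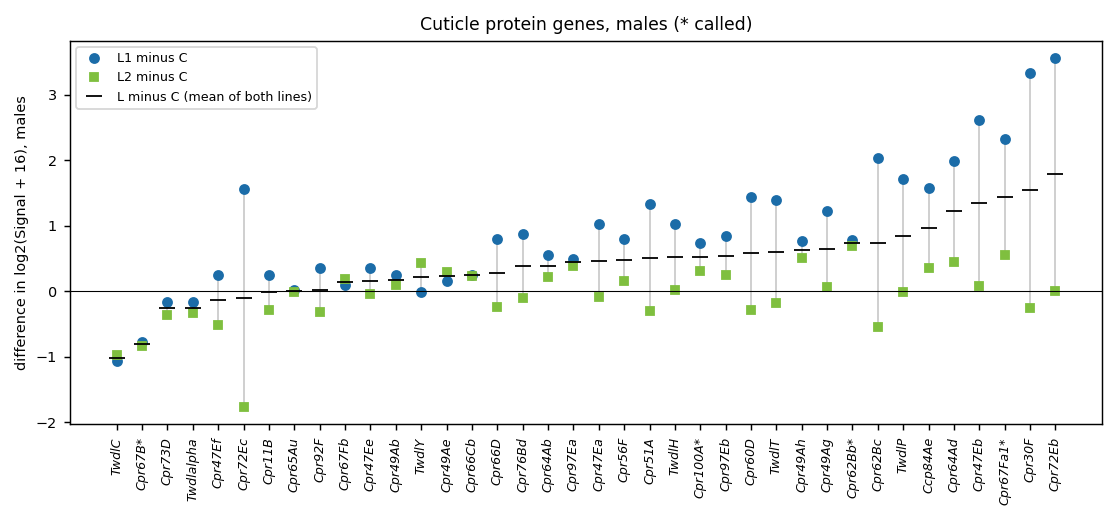
Difference from the mean of C1 and C2 in log2(Signal + 16), males, for the 38 cuticle protein genes tested, in order of the L minus C difference (black bars). Circles (L1) reach 3.56 at Cpr72Eb while squares (L2) stay under 1 in all 38, and an asterisk marks the 4 called genes.

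Several further genes with the largest increases followed the same L1 pattern. The sulfotransferase gene pip (pipe), which patterns the egg covering, was at 376 and 500 in L1, 85 and 90 in L2 and 59 to 89 in C (1.29, SE 0.162, adjusted p = 0.000447). CBP, which encodes a calcium-binding protein, was at 429 and 506 in L1, 119 and 80 in L2 and 65 to 79 in C (1.39, SE 0.176, adjusted p = 0.000453). Sans, the fly counterpart of an Usher syndrome scaffold protein, was at 187 and 265 in L1, 32 and 66 in L2 and 24 to 44 in C (1.32, SE 0.299, adjusted p = 0.0269). All 3 lost their calls without line L1, pip also without the first array of C1 and Sans without any 1 of 5 arrays, both of C2 and the second of C1, L1 and L2. CG8736 had the largest increase of all, with Signals of 203 and 301 in C1, 228 and 136 in C2, 3233 and 3867 in L1, and 225 and 356 in L2. Its difference was 2.20 (SE 0.247, adjusted p = 0.000164), and it was not called without line L1, the first array of C1 or the second of L2. CG4998 (1.49), CG13065 (1.40) and CG13231 (1.23) were each more than 2 above C in L1, whereas in L2 they differed from C by 0.65, 0.33 and 0.36. All 3 lost their calls without line L1, CG13065 also without any 1 of 4 arrays.

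Other genes more than 2-fold higher lay clearly above C in both lines. CG10725 was at 123 and 178 in C1, 207 and 316 in C2, 421 and 576 in L1, and 990 and 982 in L2. The groups did not overlap, L2 was above L1, and the difference was 1.75 (SE 0.144, adjusted p = 2e-05). The leucine-rich repeat gene ltl (larval translucida) was at 200 and 152 in C1, 228 and 248 in C2, 653 and 424 in L1, and 453 and 435 in L2. It rose by a similar amount in both lines (1.18, SE 0.167, adjusted p = 0.00104). CG11413 was at 340 and 333 in L1 and 176 and 169 in L2 against 61 to 118 in C (1.30, SE 0.159, adjusted p = 0.000377), and was not called without line L1.

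**Figure D4:**
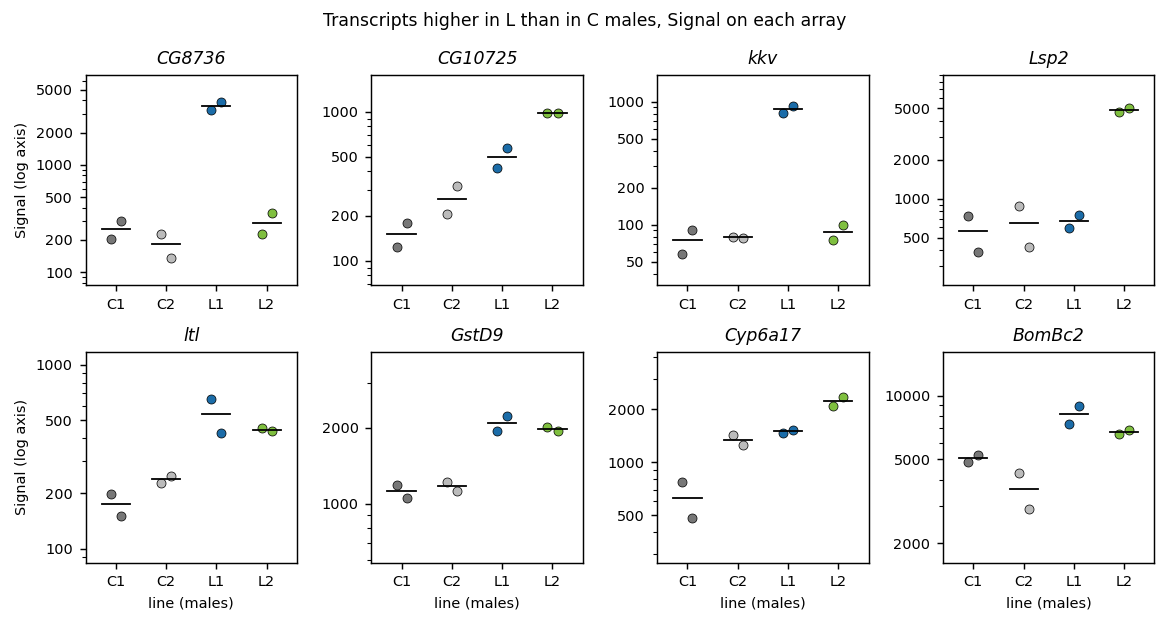
Signal on each male array (dots, log axis) by line, with the mean of both arrays of a line as a bar, for 8 transcripts higher in L. CG8736 and kkv are high in L1 alone and Lsp2 in L2 alone (4686 and 5075), whereas ltl, GstD9 and BomBc2 are high in both L lines.

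The list of larval serum and fat body genes gave 1 large change, and that of starvation, insulin and lipid storage genes mostly small decreases. Of 7 larval serum and fat body genes 1 rose (14.3%; median 0.05). This was Lsp2, a storage hexamerin of the larval fat body that adults also make, with Signals of 735 and 384 in C1, 875 and 420 in C2, 593 and 743 in L1, and 4686 and 5075 in L2. Only L2 stood apart from C. The difference was 1.64 (SE 0.341, adjusted p = 0.0168), with 3.07 in L2 and 0.22 in L1, and the call was lost without the second array of any of the 4 lines. Of 4 fat body markers Lsp2 was the only one called, Fbp1 was under 50 on all 8 arrays, and the sums of 23500 to 26300 in L and 18300 to 24800 in C include Lsp2.

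The list of starvation, insulin and lipid storage genes had 3 called lower and 0 higher of 26 (11.5%), and 22 of the 26 differences were negative (median -0.16). Lsd-2 encodes the perilipin that coats lipid droplets and limits fat breakdown. Its Signals were 4299 and 3798 in C1, 3554 and 3517 in C2, 1859 and 2264 in L1, and 2945 and 2604 in L2. No L array reached C, and the difference was -0.66 (SE 0.0878, adjusted p = 0.000624). ACC, acetyl-CoA carboxylase, which commits carbon to fatty acid synthesis, was at -0.47 (SE 0.102, adjusted p = 0.0202), and the carnitine palmitoyltransferase gene whd, which admits fatty acids into mitochondria, at -0.33 (SE 0.0724, adjusted p = 0.0225). ACC lost its call without any 1 of 5 arrays and whd without any 1 of 6. Pepck2, a gluconeogenic enzyme, was at 225 and 188 in L1, against 1060 and 1049 in L2 and 641 to 1281 in C. It passed the p threshold (-0.98, adjusted p = 0.000456) but was not called, since L2 lay between the C lines. Insulin-like peptide Ilp2 was at -0.42 and was not called.

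Of 15 antimicrobial peptide genes 2 rose and 0 fell (13.3%; median 0.13), and both encode Bomanins, short peptides that the fat body secretes when the Toll pathway is active. BomBc2 was at 4836 and 5257 in C1, 4299 and 2912 in C2, 7370 and 8986 in L1, and 6569 and 6847 in L2. BomT2 was at 3977 and 3395 in C1, 2764 and 2038 in C2, 5151 and 5946 in L1, and 4370 and 5036 in L2. In both genes every L array lay above every C array, with differences of 0.80 (SE 0.119, adjusted p = 0.00157) and 0.78 (SE 0.123, adjusted p = 0.00272), the latter lost without line C2. Other peptides of the Toll response were uneven, and none was called. The drosomycin gene Drs was at -0.13 (0.78 in L1, -1.04 in L2), BomBc3 at -0.31, BomS6 at 0.12 and BomS5 at 0.13. BomS2 at 0.50 (adjusted p = 0.0626) and BomS4 at 0.49 (adjusted p = 0.14) were nearer to the called pair. DptB, a diptericin of the Imd pathway, was at 280 to 455 in L and 125 to 231 in C. Its arrays did not overlap, yet with an SE of 0.617 the difference of 0.89 had an adjusted p of 0.531, and its female difference was 3.70.

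Of 31 genes of immune recognition and signaling, 1 rose and 2 fell (9.68%; median -0.07). Besides PGRP-SC2, PGRP-LF, an inhibitor of Imd signaling, was lower (-0.44, SE 0.104, adjusted p = 0.0321). Hml, a marker of circulating blood cells, was higher by 0.29 (SE 0.0753, adjusted p = 0.0481), while 3 further hemocyte markers were not called and the 4 summed to 3190 to 4120 in L and 2440 to 4610 in C. PGRP-LF and Hml each lost the call without any 1 of 7 arrays. The stress-induced peptide TotC was at 144 to 3342 on the C arrays and 388 to 2982 on the L arrays, and no order of groups was detectable (adjusted p = 0.719).

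Calls in the lists of male reproductive tissues were near the 2.42% of all genes. Of 37 testis and sperm genes 0 were called, although 33 of the 37 differences were positive, with a median of 0.17, against 47.2% positive over all genes. The 5 testis markers summed to 43300 to 46600 in L and 34600 to 40700 in C, without overlap, and the part of testis content in these differences was not tested. Don juan (dj), a sperm protein gene, passed the p threshold (1.27, SE 0.278, adjusted p = 0.0214). Its Signals of 837 and 883 in C2 were far below 2968 and 3895 in C1, which lay among those of L2 (3059 and 3269), so it was not called. Accessory gland and seminal fluid genes, which serve sperm storage and alter female behavior after mating, had 1 called of 35 (2.86%; median -0.04). That gene was lectin-24A, at 459 and 424 in L2, 286 and 223 in L1 and 152 to 229 in C (0.79, SE 0.155, adjusted p = 0.0111), not called without line L2, line C2 or the first array of L1. The 6 accessory gland markers summed to 61500 to 70300 in L and 70200 to 72200 in C, and 0 of the 6 were called. Of 16 yolk and eggshell genes 14 did not reach 50 on 4 of the 8 male arrays and passed the filter through females, so their male contrast is not read.

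Of 17 genes of the germline and oogenesis, 8 likewise passed through females, among them both called genes. Their male values are given as a description. These were plu, at 44 to 53 in L and 28 to 39 in C, and bcd, at 9 to 31 in L and 4 to 10 in C, for which another probe set gave -0.12. The call of plu was lost without any 1 of 7 arrays and that of bcd without any 1 of the 8. The germline gene tej (tejas), which acts with small RNAs that silence transposons, fell to 14.5 and 16.2 in L1 and 2.3 and 5.8 in L2, from 42 to 53 in C. It was called at -1.30 (SE 0.124, adjusted p = 3.98e-05) without overlap, but its Signal exceeded 50 on only 1 of the 8 arrays. It passed the filter through females and was not tested when the filter used the male arrays alone, so its call is likewise only a description.

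Calls in the lists of the nervous system, 2 of 111 genes, were near the 2.42% of all genes. Of 24 genes of biogenic amines and known aggression genes 0 were called, 17 of the differences were negative, and the median was -0.15. The lowest p-values belonged to NPF, a neuropeptide gene, at 134 to 185 in L and 195 to 253 in C (-0.51, SE 0.138, adjusted p = 0.0572), and to TkR99D, a tachykinin receptor (-0.54, SE 0.176, adjusted p = 0.12). The dopamine transporter DAT was at -0.55, the octopamine receptor Octbeta1R at 0.58, and fru, the male courtship regulator, at -0.32, and none of these was called. Of 24 neuronal and synaptic genes 0 were called (median -0.10), and the GABA receptor Rdl passed the p threshold (-0.56, adjusted p = 0.0225) through L1, at 140 and 105 against 258 and 249 in L2 and 217 to 329 in C.

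The 3 neuronal markers measured summed to 594 to 903 in L and 763 to 1000 in C, with overlap, and 0 of the 3 were called. IA-2, a protein of dense-core secretory vesicles in neurons and endocrine cells, was outside these lists and lower. Its Signals were 3307 and 3182 in C1, 4950 and 4911 in C2, 1769 and 1619 in L1, and 2470 and 1773 in L2. The difference was -1.08 (SE 0.127, adjusted p = 0.000244), with no overlap. Of 14 circadian clock genes 1 was called, timeless (tim), at -0.35 (SE 0.0872, adjusted p = 0.0398), a call lost without any 1 of the 8 arrays. Of 29 odorant-binding protein genes 1 was called, Obp8a, at 514 and 562 in L1, 262 and 209 in L2 and 136 to 244 in C (0.88, SE 0.219, adjusted p = 0.0399), again lost without any 1 array. Olfactory and gustatory receptors had 4 members above the filter of 166 on the array, and 0 of the 4 were called. Of 17 phototransduction genes 0 were called.

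Lists of basic cell functions also held calls near the 2.42% of all genes. None of 41 cytoplasmic ribosomal protein genes was called, although 39 had a positive difference (median 0.09). Of 76 respiratory chain and ATP synthase genes 1 was called lower, UQCR-11, at 33 to 75 in L and 72 to 96 in C, with overlap (-0.59, adjusted p = 0.0455). The call was lost without any 1 of the 8 arrays, and the list median was 0.06. The lists of 21 muscle sarcomere genes, 15 heat shock and chaperone genes, 11 genes of cuticular hydrocarbon synthesis and 8 Npc2 sterol-binding proteins each had 0 called. Npc2e passed the p threshold (0.96, adjusted p = 0.0395) through L2 alone, at 400 and 525 against 57 to 106 on the other 6 arrays. Of 12 Osiris and yellow genes, of which Osiris genes act in cuticle formation, 1 rose: Osi2, at 79 to 120 in L and 20 to 56 in C (1.02, SE 0.259, adjusted p = 0.0423), a call lost without any 1 of 7 arrays.

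Among transcripts known here by identifier alone, CG9672 fell evenly in both lines and others less so. CG9672 (arm X) was at 3230 and 3331 in C1, 1877 and 1980 in C2, 822 and 955 in L1, and 1055 and 837 in L2. It had the lowest adjusted p of the comparison, 8.51e-06, with a difference of -1.45 (SE 0.106). CG14500 was at 774 and 656 in C1, 920 and 918 in C2, 314 and 395 in L1, and 171 and 253 in L2 (-1.52, SE 0.159, adjusted p = 8.78e-05), or -1.16 in L1 and -1.88 in L2. Neither overlapped between groups. CG18179 had the largest decrease of the called genes and a wide spread, at 297 and 697 in C1, 279 and 71 in C2, 52 and 13 in L1, and 23 and 9 in L2. Its difference was -2.89 (SE 0.488, adjusted p = 0.0046), lost without line C1. SmydA-6, of the SET and MYND domain family, was at 127 to 201 in C and 54 to 73 in L, with no overlap (-1.12, SE 0.131, adjusted p = 0.000244). CG32984 (-1.53, SE 0.288, adjusted p = 0.00926), CG32284 (-1.38, SE 0.309, adjusted p = 0.0244) and CG14410 (-1.38, SE 0.236, adjusted p = 0.00484) did not overlap between groups, and all 3 lost their calls without line C2. CG32284 also lost its call without any 1 of 6 arrays. CG34217 (-1.35, SE 0.328, adjusted p = 0.0374) overlapped and was not called without any 1 of 7 arrays.

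Of the genes the study tested by mutation, which it had picked from transcript differences in these samples, 12 could be matched by name here. The others were not analysed, and 0 of the 12 were called in males, against 2.42% of all genes. The study picked them for differences among its high, low and control lines on the Signal, not for this contrast in males. The arginase gene arg passed the p threshold (-0.44, SE 0.0947, adjusted p = 0.0202) through L1, at 309 and 278 against 500 to 586 on the other 6 arrays. Of 6 genes that the study chose on these samples for opposite changes in L males and L females, 1 was called in males, fon (fondue), a clotting protein (-0.31, SE 0.0763, adjusted p = 0.0398), a call lost without any 1 of 7 arrays. In females its difference was 0.16, with an adjusted p of 0.174 for the sex dependence. The choice on the same samples makes this list no independent evidence.

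Called genes lay on all major chromosome arms, at 3.32% of those tested on 3L (63 of 1898), 2.43% on the X, 2.21% on 3R, 2.19% on 2L and 2.12% on 2R, and 0 of 60 on chromosome 4. In 7 pairs of neighbors among the genes tested, both genes were called in the same direction. No share over all pairs of neighbors is given here, so this count is only a description. The 7 pairs comprised the Peritrophin-15, GstE and Alp pairs, Cyp4d14 with Cyp4d2, CG14752 with CG8736, MtnC with Tmlh, and CG2930 with VhaAC39-1.

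Females of the same 4 lines were separate samples on separate arrays, which share their lines with the males. Of the 240 genes, 216 (90%) differed in the same direction in females, against 58.8% of all genes tested, with smaller differences. The genes were chosen on the male values, so the sizes in both sexes are a description. The median difference of the genes higher in males was 0.62 in males and 0.40 in females, and that of the lower genes was -0.53 and -0.31. In females 289 genes (2.92%) were called, and 79 genes were called in both sexes in the same direction, 32.9% of the male and 27.3% of the female calls, with 0 in opposite directions. CG10725 (1.75 in males, 1.77 in females), CG8736 (2.20 and 2.19) and CG9672 (-1.45 and -1.42) had nearly the same difference in both. The first female array of C1 contained transcripts of males, with accessory gland and testis genes at 3.12% and 3.25% of their male level against at most 0.833% on other female arrays.

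The difference between L and C depended on sex in 12 genes (0.121%) at an adjusted p under 0.05, and 811 had an unadjusted p under 0.05. Of the 240 genes called in males, 3 were among the 12: tej, CBP and CG14834. For tej the female Signals were 381 to 514 as line means, far above males, with a difference of 0.14 against -1.30 in males (adjusted p of the difference 0.00323). CBP was at 820 to 1530 in females, with a difference of -0.07 against 1.39 (adjusted p = 0.0344). CG3857 showed the reverse, with 2.15 in females and 0.43 in males (adjusted p = 0.000502), and its female line mean was 2470 in L2 and 120 to 420 in the other lines. HSPBAP1 was at -1.12 in males and 0.30 in females (adjusted p = 0.0177). Males of C1 alone were high, at 558 and 386 against 66 to 94 on the other 6 male arrays. Without the first female arrays of C1 and L1, 28 genes passed in place of 12.

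**Figure D5:**
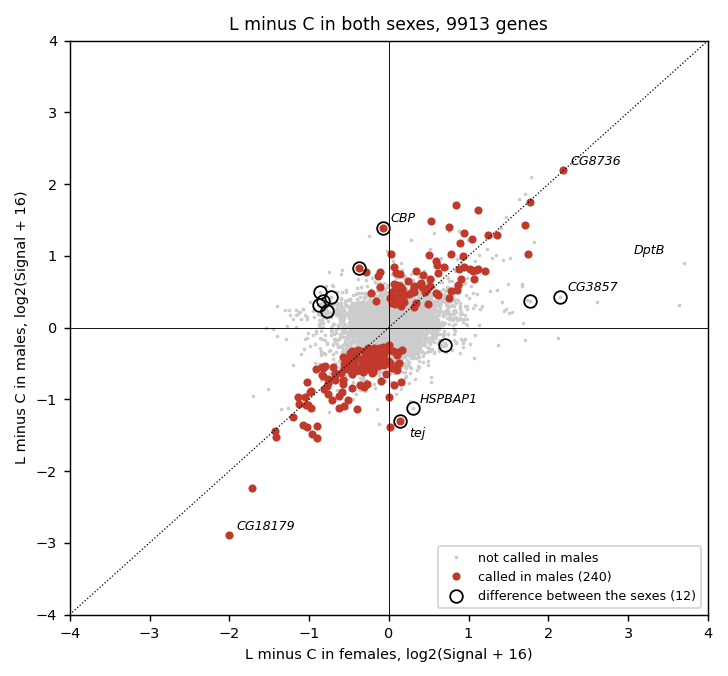
Difference between L and C in females (horizontal axis) and males (vertical axis), both in log2(Signal + 16), for 9913 genes. Of the 240 genes called in males (red), 216 lie in the quadrants of equal direction, the dotted line marks equal size, and circles mark the 12 genes whose difference depended on sex.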

How the data were processed

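The authors computed each deposited value, a Signal (an intensity on a linear scale), from the perfect-match and mismatch probes of a probe set with Affymetrix Microarray Suite 5 (MAS5) and scaled every array to a target of 500. Detection calls were not used here, and the table names no genome build. Gene names came from the platform annotation, updated through RefSeq (Release 6 plus ISO1 MT): of 18769 probe sets 13647 name 1 gene, 402 several and 4720 none, and only the first kind was used for genes.

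The scale of analysis was log2(Signal + 16), with limma 3.58.1 under R 4.3.3. The fit over all 24 arrays had 1 mean for every line in each sex (12 means), since the spread is then shared, and males were compared as the mean of L1 and L2 minus that of C1 and C2. P-values were adjusted over all 9913 genes by the method of Benjamini and Hochberg, and a call needed an adjusted p under 0.05 with both L line means beyond both C line means. The filter kept 11928 probe sets. A further test took the 6 male line means as replicates. One male array of H2, whose title carries 2 line numbers, was placed by elimination and serves only the spread.

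The comparison, the 31 gene lists and the alternatives were chosen with earlier results of these data known. The rule for named genes took the 12 largest called differences in each direction, up to 4 called members of each list (or the 2 with the lowest p), the study's genes of opposite change between the sexes, and the 5 lowest p for the sex difference. Genes named outside it, such as IA-2, ltl, SmydA-6, DptB, Pepck2, Ser6, HSPBAP1, Peritrophin-15a, Alp9, Alp10, Cpr72Eb, Cpr30F, DAT, Octbeta1R, fru, Ilp2, Cyp4d2, Cyp4d14 and Cyp6a20, were chosen after their values were seen. The contrast was tested on simulated data. No sequence is shown, and the study's own comparisons were not used.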

Additional observations from a re-analysis of the deposited data

Results flagged for a closer look

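In 6 of 214 groups of 4 male arrays, taken over the named genes, 1 array stood apart from the other 3 by Dixon's ratio of its gap to the range, and chance alone marks about 1 in 20 groups. In L males these were whd (ratio 0.976), with 2875 on the second array of L2 against 3122 to 3128, Obsc (0.929), with 880 on the second array of L1 against 1155 to 1179, and LManI (0.897), with 274 on the second array of L1 against 320 to 326. Orco (0.948) was at 74 on the first array of L2 against 98 to 99, and ltl (0.846) at 653 on the first array of L1 against 424 to 453. In C males Npc2e (0.949) was at 57 on the second array of C2 against 103 to 106.

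The test of the difference between the sexes marked 12 genes. Besides CG3857 (adjusted p = 0.000502), tej (0.00323), HSPBAP1 (0.0177) and CBP (0.0344), these were CG14384 (0.00894), CG15657 (0.0153), CG5539 (0.0153), CG30151 (0.0171), CG11263 (0.0177), CG14834 (0.0432), CG16957 (0.0432) and Send1 (0.0432). In males CG11263 was at 4.3 to 24.6 and Send1 at 1.85 to 12.1 as line means. In females CG14384 was at 2.25 to 8.25 outside L2 (151). At such levels the log2 scale used here understates a change in that sex. CG15657, CG5539 and CG16957 were at 660 to 2280 as line means in males and at 5.8 to 71.8 in females, where C1, the line whose first female array carried male transcripts, had the highest mean in all 3. A refit without the first female arrays of C1 and L1 passed 28 genes, but its results for these 3 genes are not given here.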

How the results depend on the processing

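The 240 genes called became 108 with arrays scaled to a common median within each sex, 6 with line as a random block, 795 with the ordinary model on the Signal itself, 72 at an adjusted p under 0.01, 511 without line L2, 366 without line C1 and 398 with the 12 male arrays alone and quantile normalization, an alternative chosen after seeing the data. Leaving out 1 male array gave 108 (second of L1) to 182 (second of C1) over the L and C arrays, where omission of any of the other 6 also moved the count by over 1.5 times, and 225 without the first array of H2. The 6 genes that remained with line as a random block were CG10725, CG9672, GstD9, IA-2, SmydA-6 and tej. All were called under every alternative on the log2 scale that tested them. SmydA-6 was not tested at a minimum of 100, nor tej with the filter on male arrays. The call of tej is only a description, since this gene passed the filter through females. The share of higher genes rose from 35.4% to 47.1% with the 12 male arrays alone, and to 51.1% with these scaled to a common median (chosen after seeing the data). The rule of 2 steps took 235 probe sets without L1 and 269 without C2 in place of 450. The 12 genes with a difference between the sexes became 31 with quantile normalization, 20 with the common median, 6 with a pseudocount of 1, 2 with line as a random block, 204 on the Signal, 6 with the ordinary log2 model, 3 without L2, 6 without C1, 28 without the first female arrays of C1 and L1, and 3 to 10 without 1 male array. With the line as the replicate the limma count stayed at 0 under all 6 alternatives, with 382 to 553 genes at an unadjusted p under 0.05. No called difference of a named gene turned its direction under the alternatives on the log2 scale, and directions on the Signal were not counted. The cause of these changes was not tested.

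Replicate numbers are shared by the lines, but the labels do not say that they mark a batch. Differences between the first and second arrays correlated at -0.03 to 0.21 between an L and a C line. With a replicate block 297 genes were called, with all 240 among them, and the numbers were not taken as pairs.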
